A study of Mus musculus with 6 samples.

Results

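The genes for the proteins of the cytosolic ribosome were compared between lymph nodes of Rag2/pfp knockout mice (KO) and of wild-type mice (WT), with 3 arrays per genotype. Probes were taken when their platform symbol was Rpl or Rps followed by a digit, or was Rpsa, Rplp0, Rplp1, Rplp2 or Fau, and kinase, pseudogene, antisense and like symbols were dropped. This gave 61 of the 16593 gene symbols on the array, with 78 of its 25697 probes. Of these symbols 59 name ribosomal proteins, and Rps19bp1 and Rps23rg1, which share only the letters, were kept because the rule takes them. A probe was tested if 3 or more of the 6 arrays detected it (detection p-value under 0.05), and 65 probes of 55 genes met this filter. Of the 13 probes not tested, 11 were not above background on any array, and Rpl14, Rpl17, Rplp2, Rps23 and Rpsa were left with no tested probe. Rpl11 and Rps27a had no probe under those symbols and were not analysed here.

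The KO mice lack Rag2 and pfp. Rag2 is a component of the enzyme that cuts DNA at antigen receptor gene segments before they are joined. The gene pfp encodes perforin (Prf1), the pore-forming protein of cytotoxic granules. Without Rag2 no mature B or T cells form. The labels give the genotype and the tissue of both groups, and no strain, age or treatment. They do not say which node was taken or if each replicate is its own mouse, so the spread behind each p-value is that among these arrays and may be technical. Total RNA was amplified, labelled with biotin and read on BeadChips (Illumina Mouse Ref-8 v2), on which beads carry 1 probe each and the brightness of the beads is the signal.

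The cytosolic ribosome has a small subunit, which reads the mRNA, and a large subunit, which joins the amino acids. Its proteins (Rps in the small subunit, Rpl in the large one) are made in matched amounts, and their mRNAs are among the most abundant of growing cells. In mammals these mRNAs begin with a C followed by a run of pyrimidines, the 5′ terminal oligopyrimidine (TOP) tract, through which the growth kinase mTORC1 controls their translation. Resting lymphocytes are small cells with few ribosomes, and they build many more when they are activated.

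The shared start is shown first because it is the sequence feature that the whole family is known for. RefSeq (GRCm38.p6) gave promoters for 50 of the ribosomal protein genes, which lie on 17 chromosomes, 4 of them on X. Each line runs 5′ to 3′ on the gene's strand from 20 bases before the annotated start to 20 bases from it on, with the tract in capitals. The first 3 genes had a probe called lower in KO, and no probe of the last 3 was called.
Rpl35a, chr16:33056462-33056501, plus strand: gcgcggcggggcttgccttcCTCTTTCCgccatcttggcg
Rps15a, chr7:118116128-118116167, minus strand: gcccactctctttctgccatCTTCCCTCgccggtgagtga
Rps24, chr14:24490658-24490697, plus strand: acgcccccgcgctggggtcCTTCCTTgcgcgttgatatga
Rps6, chr4:86857348-86857387, minus strand: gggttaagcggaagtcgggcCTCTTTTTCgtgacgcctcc
Rpl38, chr11:114668560-114668599, plus strand: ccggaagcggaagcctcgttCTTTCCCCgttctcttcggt
Fau, chr19:6057927-6057966, plus strand: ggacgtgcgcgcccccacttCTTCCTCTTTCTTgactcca
Called genes and genes not called thus both include such starts. A C followed by at least 4 pyrimidines, beginning within 10 bases of an annotated start on the gene's strand, was found in 31 of the 50 ribosomal protein genes (62%), against 34.4% of all 27025 genes with a promoter. CCGGAAG, the core that ETS factors bind, stood on either strand of the 300-base promoter in 20 of the 50 (40%), against 9.93% of all genes. AAGATGG, the core bound by YY1, stood there in 10 of the 50 (20%), against 7.28% of all genes. Among genes with a tested probe the tract was found in 12 of 23 called lower and in 16 of 23 not called, the ETS core in 6 of 23 and 12 of 23, and the YY1 core in 6 of 23 and 4 of 23. These are matches of letters in annotated windows, and a gene with several annotated starts had more chances to hold one.

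Between 51.3% and 56.3% of all probes were detected on each array. No array detected Rag2 (detection p-values of at least 0.332), and neither Prf1 probe passed the test (log2 fold changes -0.14 and 0.35, limma adjusted p = 0.804 and 0.439), so the targeted transcripts gave no check of the genotype. B cell markers were lower in KO for 13 of 13 tested genes, with a summed level of 1130 to 1730 in KO against 55100 to 91300 in WT, and Cd79a, Ms4a1 and Cr2 were not above background on any KO array. T cell markers were lower for 10 of 12 and higher for 1 (Ccr7, 1.22), with sums of 3390 to 6350 in KO against 33500 to 46800 in WT. WT replicate 2 stands apart: 14 salivary gland probes averaged 11.45 on the log2 scale there and 10.71, 13.86 and 12.93 in KO replicates 1, 2 and 3, against 6.47 and 6.73 in WT replicates 1 and 3. Over all tested probes its correlation with the KO arrays was 0.915 to 0.9303, against 0.8837 and 0.8926 with the other WT arrays. Over the ribosomal protein probes the order was the other way, with correlations of 0.9864 to 0.9887 with KO arrays against 0.9969 and 0.9974 with WT arrays. These correlations are across probes, which share their arrays.

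Many ribosomal protein transcripts were lower in KO nodes, and none was called higher. Of the 65 tested probes, 27 were called lower (41.5%) and 0 higher by limma at an adjusted p under 0.05, against 18.5% of all 14378 tested probes called lower and 10.1% called higher. The median log2 fold change, KO over WT, was -0.49 (quartiles -0.77 and -0.18), against 0 over all tested probes (quartiles -0.54 and 0.52). The members' changes were narrow in range, from -1.71 to 0.19: 57 of 65 lay below 0. Called falls of at least 2-fold numbered 8 of 65, close to the 11.6% among all tested probes. All 3 KO arrays lay under all 3 WT arrays for 47 of the 65 probes, against 27.3% of all probes, and above them for 1 (Rpl21), against 21% of all probes. With 1 probe per gene, the brightest, 21 of 55 genes were called lower with a median of -0.46.

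In bulk tissue, fewer cells of a type and less RNA per cell cannot be told apart. The B and T cell markers above moved with this fall. Markers of dendritic cells (4 of 7 higher, 0 lower, median log2 fold change 1.09) moved the other way. So did those of adipocytes (4 of 8 higher, 0 lower, 0.92). Macrophage markers had a median of 1.01 (3 of 9 higher, 1 lower), with Timd4 called lower at -1.36. Medians were 0.38 for NK cells (1 of 8 higher, 1 lower) and 0.17 for fibroblasts and stroma (3 of 12 higher, 2 lower). They were 0.66 for erythroid cells (1 of 5 higher, 1 lower) and 0.08 for skeletal muscle (1 of 4 higher, 2 lower). Of all tested probes 10.1% were called higher and 18.5% lower. Summed levels were 11700 to 19100 in KO against 3950 to 6540 in WT for dendritic cells. For adipocytes they were 27900 to 38200 in KO against 17400 to 21500 in WT. Those of macrophages overlapped, at 52000 to 74100 in KO against 30400 to 64100 in WT. The part of any of these lists in the fall was not tested. Nor was that of cell cycle genes, of which 9 of 10 tested were lower with a median log2 fold change of -2.08. Many ribosomal protein genes have near-identical processed pseudogenes that a probe may not separate, so a value belongs to the gene and any such copies together.

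**Figure D1:**
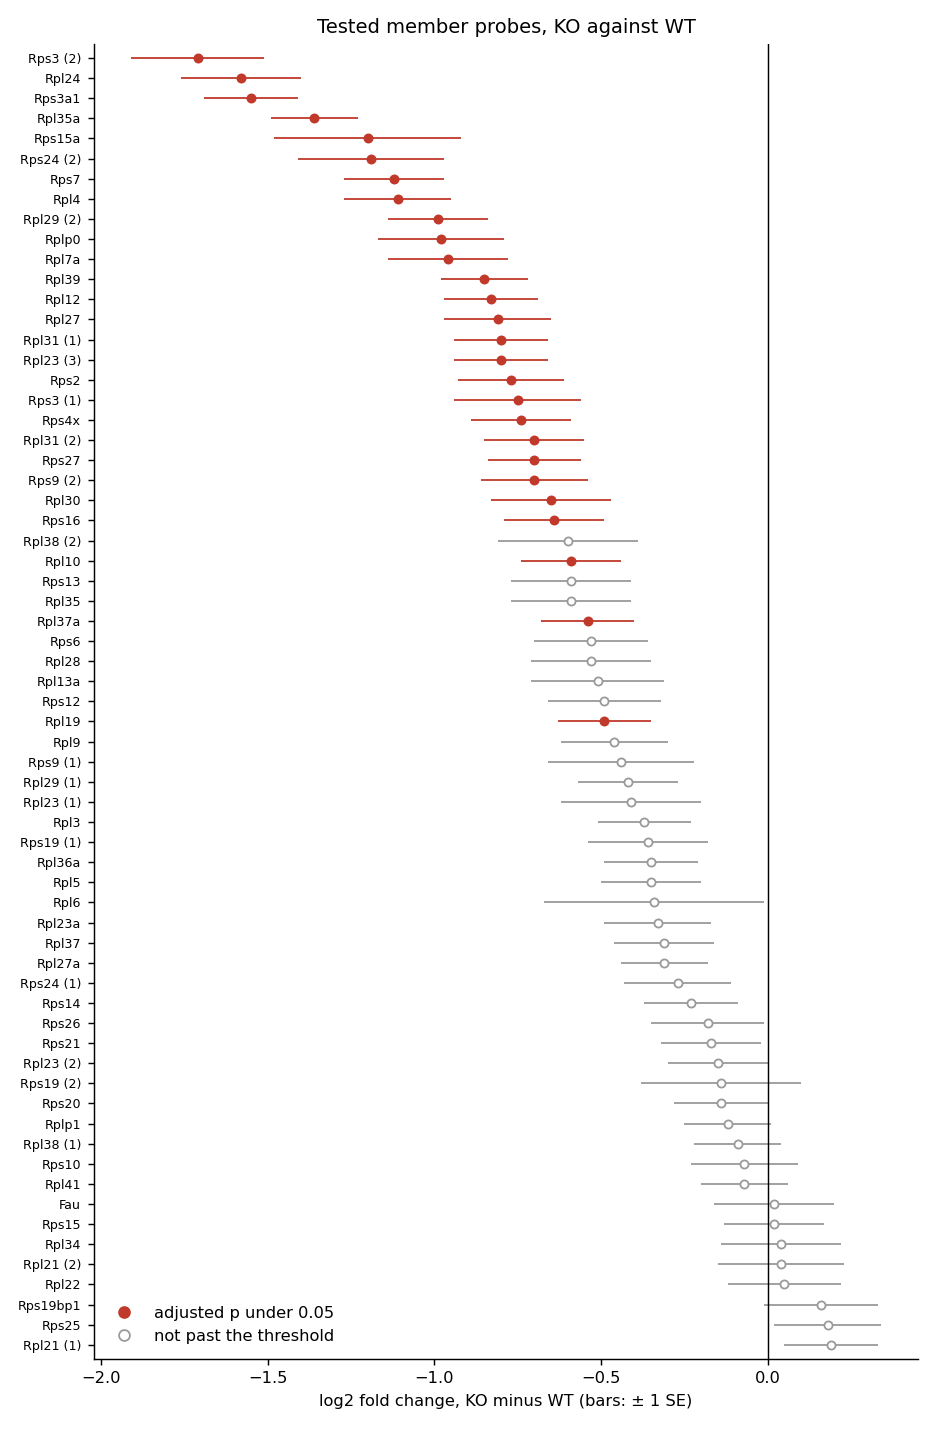
Log2 fold change, KO over WT, of each of the 65 tested probes (1 row each, point with 1 standard error on each side), with colour for the call; numbers in brackets rank the probes of 1 gene from brightest to dimmest. The changes run from -1.71 for a probe of Rps3 to 0.19 for a probe of Rpl21, 57 lie left of 0, and the 27 called probes are all on that side.

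The fall ran through both subunits. In the large subunit 15 of 36 tested probes (41.7%) were called lower with a median log2 fold change of -0.50. In the small subunit 11 of 26 (42.3%) were, with a median of -0.51, against 18.5% of all tested probes. Of the stalk proteins, which recruit the translation factors, 1 of 2 was called. Rps19bp1, a regulator of the deacetylase Sirt1 and no part of the ribosome, had a log2 fold change of 0.16 (SE 0.17, limma adjusted p = 0.49), and -0.25 without normalisation.

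Small subunit proteins held 5 of the 10 largest falls. Rps3, which lines the channel where mRNA enters, read 11.77, 11.66 and 12.00 on the normalised log2 scale in KO against 13.35, 13.36 and 13.85 in WT by its dimmer probe, a log2 fold change of -1.71 (SE 0.20, limma adjusted p = 0.00371). The KO arrays lay more than 1 log2 unit under the lowest WT array, wider than the spread within either group. Rps3a1, near the mRNA exit, read 9.77, 9.95 and 9.69 in KO against 11.32, 11.32 and 11.41 in WT (log2 fold change -1.55, SE 0.14, limma adjusted p = 0.00241). Rps7, a small subunit protein mutated in some patients with Diamond-Blackfan anaemia in humans, read 12.02, 11.87 and 11.85 in KO against 13.04, 12.87 and 13.17 in WT (log2 fold change -1.12, SE 0.15, limma adjusted p = 0.00525). Neither gene's groups overlapped, and both were called with any 1 array left out. Rps24, also a Diamond-Blackfan gene in humans, read 9.06, 8.81 and 8.95 in KO against 10.28, 9.72 and 10.39 in WT by its dimmer probe (log2 fold change -1.19, SE 0.22, limma adjusted p = 0.0116). For Rps15a, a small subunit protein, the values were 7.69, 8.05 and 7.88 in KO against 9.66, 8.67 and 8.90 in WT (log2 fold change -1.20, SE 0.28, limma adjusted p = 0.0245). WT replicate 1 stands well above the other WT arrays here, and leaving it out gave a log2 fold change of -0.91. The call of Rps15a was lost without any 1 of the KO arrays or without WT replicate 3, with adjusted p of 0.06 to 0.081. It was also lost with the mean level of the salivary gland probes as a covariate (log2 fold change -0.9, limma adjusted p = 0.16).

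Of the other small subunit genes, Rps2, at the mRNA entry channel, fell by 0.77 on the log2 scale, Rps4x, encoded on the X chromosome, by 0.74, Rps27 by 0.70 and Rps16 by 0.64. Rps13, at -0.59, was the member just outside the threshold on this side (limma adjusted p = 0.051). At the flat end were Rps10 (log2 fold change -0.07), Rps15 (0.02) and Rps25 (0.18), none of which passed the test. Without normalisation Rps15 was at -0.15, and under 75th percentile scaling Rps10 was at 0.13. Rps25 is dispensable for bulk translation but needed for initiation at some viral internal entry sites.

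Among large subunit proteins, Rpl24, which forms a bridge to the small subunit, had the largest fall in the main setting. Its probe was dim, with a mean raw intensity of 279 in KO against 857 in WT. In the log2 values deposited by the authors Rpl24 lay at -1.24, behind Rpl35a at -1.35. In the main setting Rpl24 read 7.93, 7.77 and 7.67 in KO against 9.31, 9.18 and 9.62 in WT (log2 fold change -1.58, SE 0.18, limma adjusted p = 0.00331). Rpl35a, another Diamond-Blackfan gene in humans, read 12.68, 12.70 and 12.66 in KO against 14.03, 14.01 and 14.09 in WT (log2 fold change -1.36, SE 0.13, limma adjusted p = 0.0025). The arrays of each group lay within 0.1 of each other for Rpl35a, the tightest pair of groups among the 10 largest falls. Rpl4, whose long loop lines the tunnel through which the nascent chain leaves, read 11.39, 11.17 and 11.19 in KO against 12.51, 12.17 and 12.39 in WT (log2 fold change -1.11, SE 0.16, limma adjusted p = 0.00631). By its dimmer probe Rpl29 read 11.16, 10.83 and 10.91 in KO against 11.94, 11.89 and 12.03 in WT (log2 fold change -0.99, SE 0.15, limma adjusted p = 0.00772). None of these 4 overlapped between the groups, and each was called with any 1 array left out.

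Further falls came from large subunit proteins around the same tunnel and elsewhere. Rpl39, a small protein in the tunnel wall, fell by 0.85 on the log2 scale, Rpl7a by 0.96, Rpl12, at the base of the stalk, by 0.83, Rpl27 by 0.81, Rpl30 by 0.65, Rpl37a by 0.54 and Rpl19 by 0.49. Rpl7a was near background in KO, where 2 of 3 arrays detected it. It lay at -0.48 in the log2 values deposited by the authors, and was called in 4 of the 6 fits with 1 array left out. Rpl31, at the tunnel exit, was called by both of its probes (log2 fold changes -0.80 and -0.70). Rpl35, at -0.59, lay just outside the threshold (limma adjusted p = 0.0502). Rpl34 (0.04) and the probes of Rpl21 (0.19 and 0.04) were above 0 and not called, and lay at -0.14, -0.29 and -0.40 without normalisation.

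The stalk was split. Rplp0, its base, read 9.28, 9.26 and 8.85 in KO against 10.19, 9.89 and 10.25 in WT (log2 fold change -0.98, SE 0.19, limma adjusted p = 0.0146). The groups did not overlap, but the call was lost without KO replicate 3, WT replicate 1 or WT replicate 3, with adjusted p of 0.051 to 0.056. With the gland covariate it was lost too (log2 fold change -0.72, limma adjusted p = 0.087). Rplp1, a flexible arm of the stalk, was close to the top of the scale on every array: its raw intensity was 62121, 57988 and 56596 in KO against 69740, 67672 and 68252 in WT. Its log2 fold change was -0.12 (SE 0.13, limma adjusted p = 0.508), turning to 0.07 under 75th percentile scaling, and the WT replicate 1 value was the highest intensity on that array.

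**Figure D2:**
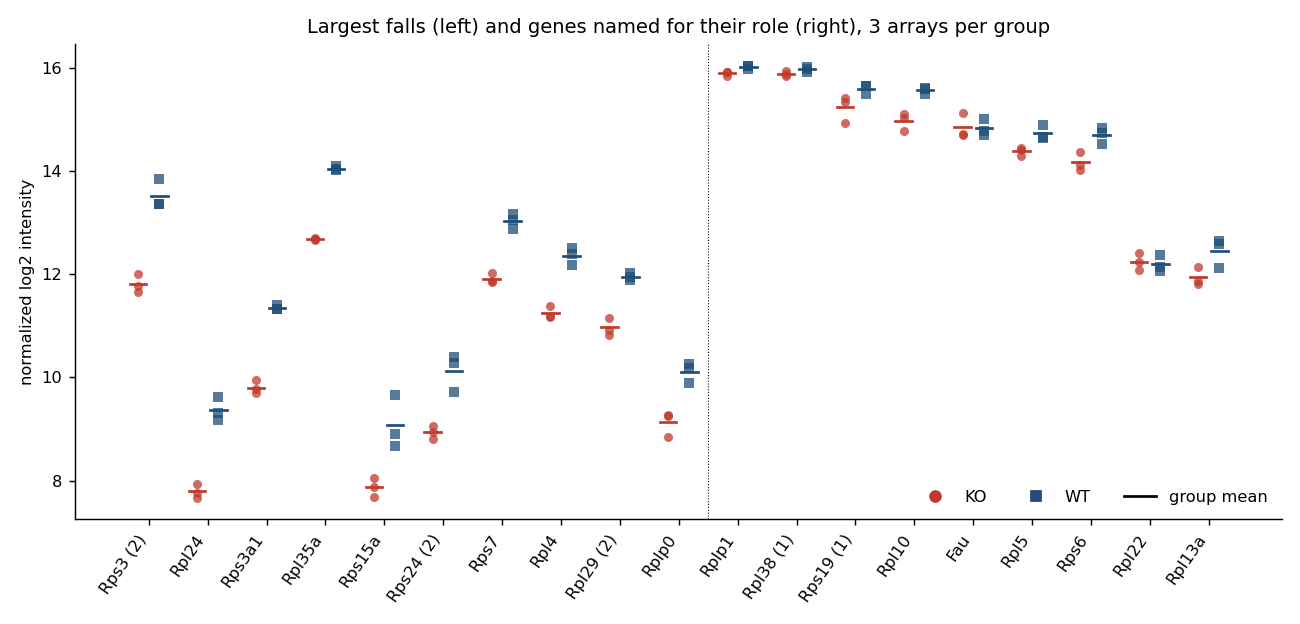
Normalised log2 intensity on each array (points, with a bar at each group's mean), KO left of WT within each gene, for the 10 largest falls left of the dotted line and genes chosen for their role right of it. The genes left of the line were chosen as called with no overlap between the groups, so their separation follows from that choice. Of the genes right of it, Rpl38, Fau, Rpl22 and Rpl13a overlap between the groups.

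Genes known for roles beyond the ribosome's core were followed whatever their values. Rpl10, which joins the large subunit last and lets the subunits come together, read 15.03, 14.78 and 15.10 in KO against 15.49, 15.61 and 15.58 in WT (log2 fold change -0.59, SE 0.15, limma adjusted p = 0.0332). It was the only one of these genes beside Rplp0 to be called, and its call was lost on leaving out any 1 array other than WT replicate 2 (adjusted p 0.071 to 0.1). The Rpl10 call was also lost with the gland covariate (log2 fold change -0.58, limma adjusted p = 0.11). Rps6, the substrate of the S6 kinases, read 14.37, 14.01 and 14.11 in KO against 14.74, 14.52 and 14.83 in WT (log2 fold change -0.53, SE 0.17, limma adjusted p = 0.0615). Rpl13a, a part of the complex that silences inflammatory mRNAs in human myeloid cells, read 12.14, 11.87 and 11.81 in KO against 12.64, 12.11 and 12.59 in WT (log2 fold change -0.51, SE 0.20, limma adjusted p = 0.104). The groups were apart for Rps6 and overlapped for Rpl13a, and neither gene passed the test in the main setting. Both did without WT replicate 2, with adjusted p of 0.034 for Rps6 and 0.023 for Rpl13a. Both also did without normalisation (limma adjusted p = 0.029 and 0.043). Rps6 passed as well in the log2 values deposited by the authors (0.041) and with another variance model (0.035).

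Rpl5, which with the 5S RNA binds the p53 regulator Mdm2, read 14.28, 14.45 and 14.40 in KO against 14.65, 14.64 and 14.89 in WT (log2 fold change -0.35, SE 0.15, limma adjusted p = 0.12). Rps19, the gene most often mutated in Diamond-Blackfan anaemia in humans, read 15.42, 14.93 and 15.34 in KO against 15.65, 15.49 and 15.64 in WT (log2 fold change -0.36, SE 0.18, limma adjusted p = 0.169). These Rps19 values are of its brighter probe, and its other probe overlapped between the groups (log2 fold change -0.14). For Rpl5 and the brighter Rps19 probe, every KO array lay under every WT array without passing the test. Rpl22, whose loss in mice blocks the development of most T cells, read 12.41, 12.23 and 12.08 in KO against 12.13, 12.38 and 12.06 in WT (log2 fold change 0.05, SE 0.17, limma adjusted p = 0.832). Fau, made as a fusion of a ubiquitin-like protein with a small subunit protein, read 15.12, 14.71 and 14.70 in KO against 15.01, 14.69 and 14.77 in WT (log2 fold change 0.02, SE 0.18, limma adjusted p = 0.943). The groups of Rpl22 and Fau overlapped, and both changes had the other sign without normalisation, at -0.16 for Rpl22 and -0.12 for Fau. Rpl38, needed in mice for the translation of Hox mRNAs, was at 15.93, 15.83 and 15.88 in KO against 15.97, 15.92 and 16.01 in WT by its brighter probe (log2 fold change -0.09, SE 0.13, limma adjusted p = 0.638), and at 0.09 when arrays were scaled by their 75th percentile.

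The intensity of a bead array has an upper end, and many ribosomal protein probes sit near it. The highest intensity on each array was 66268, 67077 and 64215 in KO against 69740, 69134 and 68595 in WT. Members over 50% of that maximum numbered 16, 11 and 12 in KO against 24, 22 and 27 in WT, and members over 90% of it 4, 1 and 1 in KO against 9, 5 and 8 in WT. Among the 100 brightest probes of an array there were 21, 17 and 17 members in KO against 30, 27 and 31 in WT. The members carried 4.51%, 4.31% and 4.17% of the summed raw signal in KO and 5.48%, 5.14% and 5.47% in WT. The files hold no flag for saturated probes.

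Members were then grouped by their mean raw intensity as a share of each array's maximum: at least 50%, from 10% to 50%, and under 10%. In the brightest class 3 of 19 members were called lower (Rps2, Rps4x and Rpl10) with a median log2 fold change of -0.31, against 8.57% of all 70 probes in that class. In the middle class 11 of 24 were called lower with a median of -0.54, against 14.8% of all 815 probes there. In the dimmest class 13 of 22 were called lower with a median of -0.75, against 18.8% of all 13493 probes. The median spread within groups also differed by class, with an SD of 0.11, 0.13 and 0.18 for members from the brightest class to the dimmest. Across the 65 probes the share of the maximum and the log2 fold change had a Pearson correlation of 0.34 and a Spearman correlation of 0.26, a description over probes measured on the same arrays. Of the 46 members under 50% of the maximum, 24 were called lower with a median of -0.60.

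**Figure D3:**
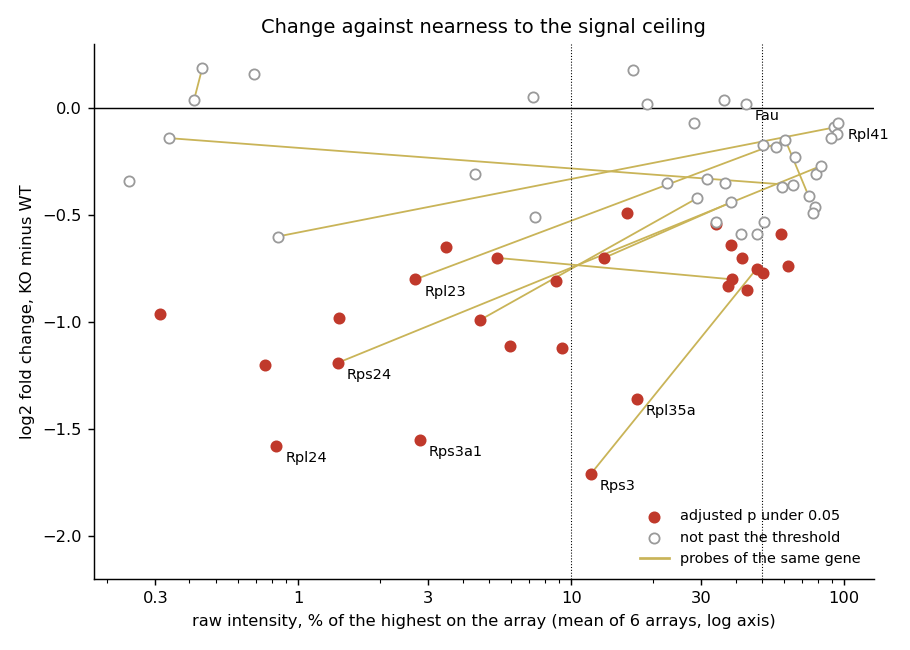
Log2 fold change, KO over WT, of each tested member against its mean raw intensity as a percent of the array maximum (log axis), with filled points for called probes, lines joining the probes of 1 gene and vertical guides at 10% and 50%. Members at 50% or more lie between -0.77 and -0.07, while those under 10% spread from -1.58 to 0.19.

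Probes of the same gene mostly showed the same order. Of 9 genes with several tested probes, the dimmest probe had a lower log2 fold change than the brightest in 7, and Rpl31 and Rps19 were the exceptions. The 7 include Rpl21, whose probes were both above 0 (0.04 and 0.19) and close in brightness (0.416% and 0.446% of the maximum). Rps24 fell by 1.19 on the log2 scale by its dimmer probe, at 1.4% of the maximum, while its brighter probe, at 82.2%, had a log2 fold change of -0.27 (SE 0.16, limma adjusted p = 0.222). Rps3 was called by both probes, at -1.71 for the dimmer (11.8% of the maximum) and -0.75 for the brighter (47.8%). For Rpl23, which faces the small subunit, the dimmest probe gave -0.80 (limma adjusted p = 0.0102) and the brighter ones, at 60.9% and 74% of the maximum, gave -0.15 and -0.41 and were not called. The Rpl29 probes gave -0.99 and -0.42 and the Rps9 probes -0.70 and -0.44, in each case with only the dimmer one called. The Rpl38 probes gave -0.60 (limma adjusted p = 0.074) for the dimmer and -0.09 for the brighter. Probes of a gene can also differ in the transcripts and copies they bind, and the part of the upper end of the scale in these differences was not tested. At the very top, Rpl41, the smallest ribosomal protein, read a raw 62014, 60914 and 58159 in KO against 68584, 68701 and 67126 in WT, yet a normalised log2 fold change of -0.07 (SE 0.13, limma adjusted p = 0.688), which was 0.11 under 75th percentile scaling.

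Raw intensities were lower on every KO array than on any WT array for 57 of the 65 members, against 48.7% of all tested probes. The overall level of the KO arrays was lower as well: the median raw intensity over all probes was 141, 134 and 144 in KO against 207, 191 and 195 in WT. Without normalisation the median log2 fold change was -0.65 over the members and -0.38 over all tested probes, a gap of -0.27. After background correction and quantile normalisation that gap was -0.50, and with scaling by the 75th percentile, which moved the median of all probes to 0.04, it was -0.40.

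On the normalised scale the median member read 14.24, 14.07 and 14.13 in KO against 14.67, 14.40 and 14.61 in WT, so the array medians did not overlap. WT replicate 2 was the lowest WT array for 54 of the 65 members and still lay above every KO array for 48. Without it, 34 members were called lower and the median was -0.58, while 24.3% of all probes were called lower. With the mean level of the gland probes as a covariate, 12 members were called lower, all 12 among the 27, and the median was -0.28, against 11% of all probes called lower. Gland level itself differed between the groups (10.71, 13.86 and 12.93 in KO against 6.47, 11.45 and 6.73 in WT). This fit thus cannot fully separate it from genotype. With any 1 array left out, 12 of the 27 called probes were called every time: Rpl4, Rpl12, Rpl24, Rpl35a, Rpl39, Rps3a1 and Rps7, the brighter probe of Rpl31, and the dimmer or dimmest probes of Rpl23, Rpl29, Rps3 and Rps24. The counts themselves ranged from 12 to 34, and the share of all probes called lower ranged alongside from 9.2% to 24.3%. There were 12 called without KO replicate 3 (all probes 9.2%) or WT replicate 3 (9.9%), 15 without KO replicate 2 (9.88%) and 16 without WT replicate 1 (11.3%).

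**Figure D4:**
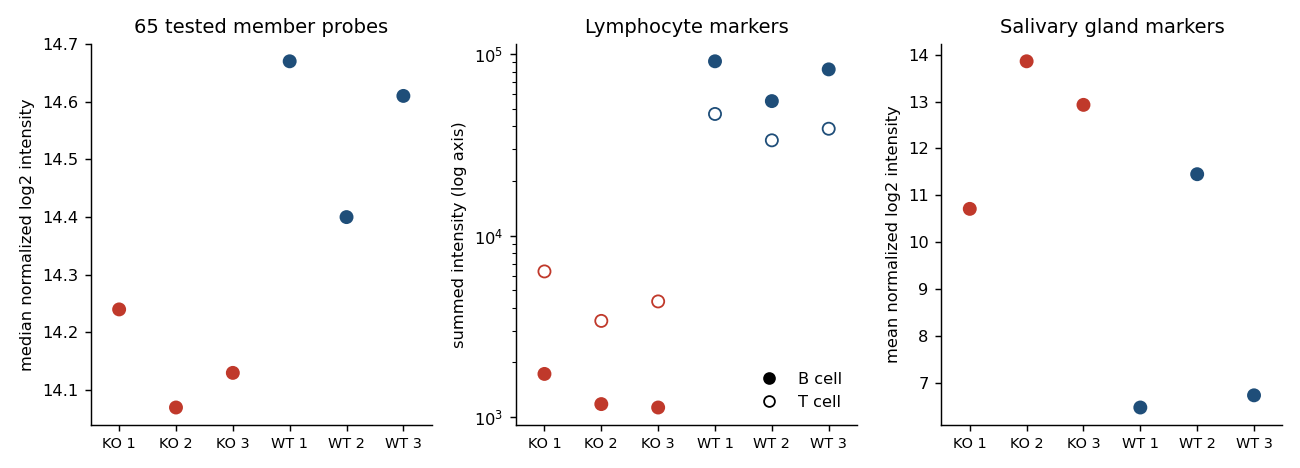
Each of the 6 arrays as 1 point, KO (red) left of WT (blue): the median normalised log2 intensity of the 65 tested probes (left), the summed intensity of B and T cell markers on a log axis (middle) and the mean normalised log2 intensity of 14 salivary gland probes (right). WT replicate 2 lies with WT in the left and middle panels, where it is the lowest of its group, and between KO replicate 1 and KO replicate 3 in the right one.

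Genes that build or use the ribosome were set beside its proteins, each by its brightest probe. Of ribosome biogenesis factors, 16 of 36 tested were lower (44.4%) and 0 higher, with a median log2 fold change of -0.60. Over all tested probes 18.5% were called lower and 10.1% higher. The biogenesis count was 28 without WT replicate 2, beside 24.3% of all probes called lower. It was 8 or 9 without any other array, beside 9.2% to 12% of all probes. Ddx21, a nucleolar RNA helicase, fell by 2.17 (SE 0.19, limma adjusted p = 0.00227) on the log2 scale. Nop58, a core protein of the particles that methylate ribosomal RNA, fell by 1.85 (SE 0.21, limma adjusted p = 0.00337). Rrp1b, a nucleolar protein, fell by 1.89, though its other probe gave -0.54 and was not called. Of RNA polymerase I genes, which serve the transcription of ribosomal RNA, 4 of 10 were lower (40%, all probes 18.5%) and 0 higher (median -0.58). Among them were Twistnb (-2.08), Taf1d (-1.45) and Polr1c (-1.09). The other probe of Taf1d, at -0.54, was not called.

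Initiation factors were lower for 9 of 27 (33.3%) and higher for 0 (median -0.39), against 18.5% and 10.1% of all probes. Eif4ebp2, a repressor of the cap-binding factor that the list includes, fell by 1.72 on the log2 scale. Pabpc1, the poly(A)-binding protein, fell by 1.52 and Eif3h by 1.30. Eif4ebp1 of the same list lay at 1.51, with every KO array above every WT array, and did not pass the test (limma adjusted p = 0.0724). The other Pabpc1 probes gave smaller falls, at -0.63 and -0.64, both called, and the Eif3h call was lost with the gland covariate (adjusted p = 0.063). Elongation factors were lower for 3 of 7 (42.9%, all probes 18.5%) and higher for 0 (median -0.33). Eef1b2, the exchange factor, fell by 1.38 (other probes -1.50 and -0.50, the second not called). Eef1e1, a part of the tRNA synthetase complex that carries an elongation factor symbol, fell by 1.37. Eif5a, which helps the ribosome past hard peptide bonds, fell by 0.72 (other probe -0.34, not called). The Eif5a call was lost with the gland covariate or without any 1 array other than WT replicate 2 (adjusted p 0.053 to 0.1). Of transcripts outside the ribosome known for a TOP start, 6 of 15 were lower (40%) and 1 higher (6.67%), with a median of -0.22. The shares of all probes were 18.5% and 10.1%. The TOP list overlaps the previous ones: 9 of its 15 genes are initiation or elongation factors already counted, 3 of them lower. Of its other 6 genes 3 were lower and 1 higher. Hnrnpa1, an RNA-binding splicing factor, fell by 1.71 (other probe -0.26, not called), and Tpt1, the translationally controlled tumour protein, rose by 0.61 (SE 0.15, limma adjusted p = 0.0287). The Tpt1 probe was dim, though detected on every array, and read 7.39, 7.40 and 7.31 in KO against 6.78, 6.59 and 6.91 in WT. The Tpt1 call was lost without any 1 array other than WT replicate 2 (adjusted p 0.057 to 0.09), and the sign turned to -0.12 without normalisation. Of the ribosomal S6 kinase family and mTORC1 genes, 1 of 11 was lower and 2 higher (median -0.05), against 18.5% and 10.1% of all probes. Rps6ka5, a kinase of that family that acts on chromatin, fell by 0.74, while Deptor (1.52, other probe 0.18 and not called) and Akt1s1 (1.26) were called higher. Both are inhibitory partners of mTOR. The Deptor call was lost with the gland covariate (0.68, adjusted p = 0.093) and without any 1 array other than KO replicate 1 or WT replicate 2 (adjusted p 0.06 to 0.077). The Rps6ka5 call was lost with that covariate (-0.41, adjusted p = 0.23) and without any 1 array other than WT replicate 2 (adjusted p 0.065 to 0.12).

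Mitochondrial ribosomal proteins, which belong to a separate ribosome, lay closer to the middle of the array. Of 94 tested probes 14 were called lower (14.9%) and 6 higher (6.38%), with a median log2 fold change of -0.08, against 41.5%, 0 and -0.49 for the cytosolic probes. Over all tested probes 18.5% were called lower and 10.1% higher, with a median of 0. Of 5 tested paralogues outside the symbols used here, 1 was called. Rpl22l1, the paralogue of Rpl22, was not above background on any KO array and read 6.35, 6.67 and 6.32 in WT, at least 1.56-fold lower in KO (limma adjusted p = 0.0161). That bound sets its WT mean against a KO mean in which each array counts at the lowest detected signal, or at the probe's own where higher. The call was lost without any 1 KO array (adjusted p 0.054 to 0.065) and when the same model was run on the log2 values deposited by the authors (-0.32, adjusted p = 0.058). Rpl7l1 (-0.44), Rps27l (-0.30), Rpl36al (-0.26) and the muscle form Rpl3l (1.47, SE 0.58, limma adjusted p = 0.103) did not pass the test.

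**Figure D5:**
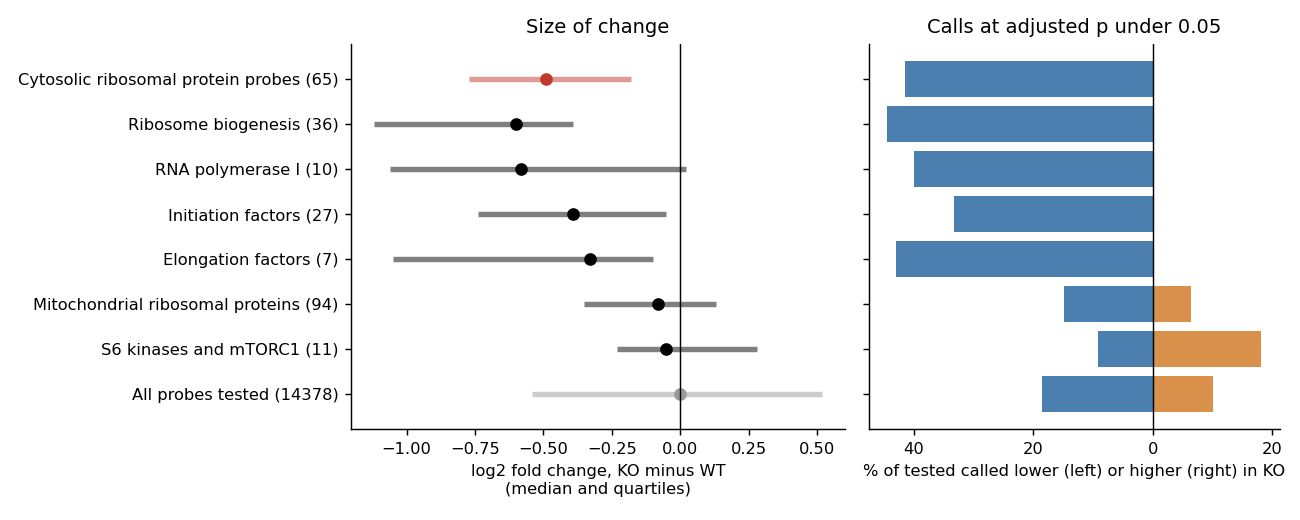
Median (point) and quartiles (bar) of the log2 fold change, KO over WT, over the tested members of each list (left), and the percent of them called lower (blue, to the left) or higher (orange, to the right) in KO (right panel), with the number tested in brackets and all tested probes in the bottom row. The medians of the cytosolic ribosomal proteins (-0.49), ribosome biogenesis (-0.60) and RNA polymerase I (-0.58) lie left of that of the mitochondrial ribosomal proteins (-0.08).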

How the data were processed

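Per the submitters' processing notes, the authors exported the deposited intensities, on a linear scale and not normalized, with GenomeStudio 2011.1, together with a deposited detection p-value per probe and array. The authors' own log2 values form another deposited table. Each of its columns has a median of 7.38, no probe was centred, and its values equalled a quantile normalization of the log2 intensities to within 5e-07. It served as an alternative.

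Intensities were background-corrected with normexp from the detection p-values, offset by 16, quantile-normalized and put on the log2 scale (neqc, limma 3.58.1, R 4.3.3). Probes detected (p under 0.05) on at least 3 of 6 arrays were fitted with lmFit and eBayes, KO minus WT, two-sided, with no covariate. The Benjamini-Hochberg adjustment ran over all 14378 probes. Fold changes are on this scale, where the offset shrinks those of dim probes. The steps were tested on simulated data.

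GEO's platform annotation gave 1 symbol for 23978 probes, none for 1719 and several for 0. Promoters are from RefSeq GRCm38.p6.

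The members and lists were chosen with earlier results of these data known. The genes named are the 10 largest falls and rises among called members with no overlap between groups (no rise qualified), genes picked for their role, up to 3 called genes of each translation list in its main direction and 1 in the other, and all tested paralogues. Other members were named to fill counts after their values were seen. The brightest detected probe stands for a gene in the lists. Marker lists for B and T cells, dendritic cells, macrophages, adipocytes, salivary gland and cell cycle are given as counts and summed levels. Those for NK cells, fibroblasts and stroma, erythroid cells and skeletal muscle are given as counts and medians. The alternatives were other background and scaling settings, filters, variance models, a replicate block, a gland covariate (added to the model as the mean level of 14 salivary gland probes) and leaving out each array.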

Additional observations from a re-analysis of the deposited data

How the results depend on the processing

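The members' direction held in every setting run: 12 to 46 probes were called lower, and 0 higher except with no filter on detection, where Rpsa (log2 fold change 0.68) and Rps23rg1 (0.67), each detected on at most 1 array, made 2. Without normalization 46 were called lower (median -0.65, all probes -0.38), beside 38.8% of all probes, and with the gland covariate 12 (median -0.28), beside 11% of all probes. With 1 array left out, counts ran from 12 to 34, beside 9.2% to 24.3% of all probes, and medians from -0.58 to -0.44. Replicate numbers are shared by the groups. Same-numbered arrays deviated with correlations of 0.489, 0.318 and -0.308, and arrays of different numbers with -0.527 to 0.422. Positive values fell only where both arrays were high, or both low, in gland level for their group. These correlations thus cannot decide if the numbers pair the arrays. With the replicate number as a block, 26 members were called lower with a median of -0.49, 13 mitochondrial ribosomal proteins lower and 5 higher, and 15 biogenesis factors lower. Of all probes, 19.7% were called lower with that block. The alternatives for these 2 lists were added after seeing the data. Mitochondrial ribosomal proteins were called lower for 41 and higher for 2 without normalization, 6 and 2 with the gland covariate, and 3 to 18 and 0 to 8 with 1 array left out. Biogenesis factors were lower for 29 without normalization, 7 with the covariate, and 8 to 28 with 1 array left out (28 without WT replicate 2). In the same settings the share of all probes called lower was 38.8%, 11% and 9.2% to 24.3% (24.3% without WT replicate 2). The causes were not tested, but fits with 5 arrays have fewer samples. Some small changes turned sign. Rplp1 was at 0.07 and Rpl38 at 0.09 under 75th percentile scaling. Fau, at 0.02 in the main setting, ran from -0.12 to 0.11 with 1 array left out. It was at -0.12 without normalization, -0.12 without KO replicate 1, -0.05 without WT replicate 2 and -0.01 without WT replicate 3. Rpl22, at 0.05, ran from -0.03 to 0.14 with 1 array left out, and was at -0.16 without normalization, -0.05 with the covariate, -0.03 without KO replicate 1 and -0.02 without WT replicate 3, and Tpt1 at -0.12 without normalization. Signal limits the set at both ends: 13 members were too dim to test, and 19 lay over 50% of the array maximum. The number of arrays limits the precision.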
